A study of Mus musculus with 12 samples.

Results

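The clustered protocadherins are 3 neighbouring arrays of cell-surface genes, alpha, beta and gamma, on chromosome 18 of the mouse. Members were all genes whose symbol begins with Pcdha, Pcdhb or Pcdhg followed by a letter or number of the cluster, and 58 of the 55487 gene identifiers in the count files met that rule. They comprised 12 alternate alpha genes, 2 alpha C-type genes (Pcdhac1 and Pcdhac2), 22 beta genes, 12 gamma A genes, 7 gamma B genes and 3 gamma C-type genes (Pcdhgc3, Pcdhgc4 and Pcdhgc5). On GRCm38 all lay on the plus strand, the alpha genes between 36930184 and 37187661, the beta genes between 37264938 and 37524479 and the gamma genes between 37661793 and 37841873. The 58 identifiers carried 57 symbols, because Pcdha11 was attached to a pair of them. ENSMUSG00000007440 starts at 37005203, close to where RefSeq on the same build starts Pcdha10 (37005320), and ENSMUSG00000102206 starts at 37010712, close to the RefSeq start of Pcdha11 (37010858). Both are kept apart below by their identifiers.

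Clustered protocadherins are cadherin-family adhesion molecules that neurons use to tell self from non-self: matching sets on touching membranes recognise each other, and in many neurons that recognition leads to repulsion between sister branches. Each neuron is known to switch on a small, largely random set of alternate alpha, beta and gamma promoters, a choice that depends on DNA methylation and on looping by CTCF and cohesin, while the C-type genes at the end of the alpha and gamma arrays are expressed more evenly and follow cell type and age. An alpha or gamma messenger RNA joins 1 variable first exon, which encodes the extracellular and transmembrane parts, to constant exons shared by the whole array, whereas a beta gene is a single exon of its own.

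The libraries came from 12 males, 3 to each of 4 groups, bred around a floxed exon 7 of Auts2 (Auts2tm1.1Dare), a gene linked to neurodevelopmental disorders. The newborn groups gave forebrain at postnatal day 0 (P0), from Cmv-cre, Auts2-ex7-/- knockouts and from wild-type littermates labelled BL6. Cmv-cre deletes throughout the body. The older groups gave hippocampus at postnatal day 14 (P14), from Nes-cre, Auts2-ex7-/- knockouts and from controls labelled auts2-ex7-fl-het, heterozygous for the floxed allele and called flox-het here. Nes-cre is active in neural progenitors and their descendants, so vessels, microglia and other cells outside that lineage are expected to keep the exon. Whether the flox-het controls carry Cre is not stated, so they may have 2 intact copies or 1. No group received a treatment, and each library came from 1 animal. Nothing beyond separate animals is stated about replication, so p-values measure the spread between these animals.

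Libraries held between 11247150 and 23340621 gene counts, and the members together took 0.0410% to 0.0602% of them. Auts2 itself, counted over all isoforms, was at 165, 182 and 161 CPM (counts scaled to library size) in the P0 knockouts and 160, 136 and 155 in the wild types. At P14 it was at 93.0, 77.5 and 75.2 CPM in the knockouts and 97.5, 98.0 and 110 in the controls. Neither difference passed the threshold (log2 fold changes of 0.16 and -0.30, edgeR adjusted p 0.362 and 0.111), and these counts cover the whole gene and not exon 7. All 12 markers of cortical excitatory neurons, Slc17a7 and Neurod6 among them, were above 0 in the P0 forebrain groups, and all 8 hippocampal markers, Prox1 and Zbtb20 among them, at P14. No marker of any list examined was at 0 in a group, so presence alone does not tell the tissues apart. The hippocampal list summed to 548 to 700 CPM at P0 and 1176 to 1724 at P14. The cortical list was also higher at P14, at 2919 to 3182 CPM against 2118 to 2472. Several libraries stood apart. P0 knockout replicate 3 and wild-type replicate 3 carry library numbers 1415 and 1416, against 1407 to 1410 for the other P0 libraries. Among the P14 controls, the summed level of 8 choroid plexus markers was 157, 982 and 2567 CPM, against 1381 to 2050 CPM in the knockouts.

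The structure of the arrays set what the counts could measure. Reads that overlap exons of more than 1 gene are given to none by the counting method, so constant exons shared by the members contributed nothing, and for all but 3 of the 36 alpha and gamma members the countable sequence lay within the variable first exon. The exceptions were Pcdhgb4, with 1039 private bases outside it, Pcdha11 (ENSMUSG00000102206), with 500, and Pcdhgb1, with 15. In the GENCODE annotation, exonic sequence that belonged to no other gene on either strand (private sequence) was a median of 45.7% of the alternate alpha genes, 53.8% of gamma A and 54.8% of gamma B, and 100% of beta. Of the 58 members, 24 shared no stretch of 100 bases with another member in the variable or single exon, 13 shared more than 5% of such stretches, and the median was 0.527%. The highest share was 37.4%, for Pcdhga4, of whose 2608 first-exon bases 1570 were private. These stretches were taken from the whole exon, so they include bases that lie under an exon of another member. Reads on such bases are dropped by the counting, so a high share does not by itself make a count uncertain.

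Not every member could be tested. A filter on low counts kept 52 members at P0 and 53 at P14, for the difference between the contexts and for the comparison of the control groups. Pcdha4, Pcdha8, Pcdha11 (ENSMUSG00000102206), Pcdhb1 and Pcdhga10 did not pass in either context, and Pcdhgb8 did not pass at P0. Pcdha8 had 1 to 19 counts per library and Pcdhb1 had 0 to 9. Pcdhga10 had 0 counts in all 12 libraries and 0 private bases, since an antisense transcript, Gm26672, and neighbouring gene models cover it, so its value of 0 is not evidence that the gene was off. Pcdha4 had 404 private bases and at most 3 counts, and Pcdha11 (ENSMUSG00000102206) at most 2 counts.

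Levels were compared between genes as CPM per kilobase of private sequence. On this measure Pcdhgc3, which has also been linked to Wnt signalling, ranked first in every group. It was at 26.4 ± 2.57 CPM per kb in P0 wild types and 22.7 ± 2.69 in P14 controls (SD, n = 3 each). Pcdhgc4, an isoform required for the survival of many neurons, ranked 2 at P0 with 18.9 ± 0.734 CPM per kb and 6 at P14 with 5.03 ± 0.804. Pcdhac2, known for its role in the tiling of serotonergic axons, ranked 3 at P0 with 11.6 ± 0.958 CPM per kb and 2 at P14 with 13.4 ± 3.62. Pcdhgc5 went from rank 42 with 1.28 ± 0.212 CPM per kb at P0 to rank 3 with 11.1 ± 1.44 at P14. Pcdhac1 was low in both, at 1.29 ± 0.330 and 1.98 ± 0.491 CPM per kb. At P0 the lowest libraries of Pcdhgc3 lay above the highest of Pcdhgc4 and those of Pcdhgc4 above the highest of Pcdhac2, whereas in the P14 controls Pcdhac2 and Pcdhgc5 did not differ beyond their spread. In the P14 knockouts Pcdhac2, at 14.8 to 16.1 CPM per kb, lay above Pcdhgc5, at 11.9 to 13.3. The first rank of Pcdhgc3 depends on division by its 1821 private bases. In plain CPM, Pcdhgc4 was above Pcdhgc3 in P0 wild types (means of 65.7 and 48.1). Pcdhgc5 was above it in P14 controls (51.0 and 41.3). On full exonic length, 5596 bases for Pcdhgc4 and 5499 for Pcdhgc3, Pcdhgc4 was also the higher of the pair at P0.

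No alternate gene reached Pcdhgc3 or Pcdhac2 in the control groups. Many lay above Pcdhac1, which ranked 41 at P0 and 29 at P14, and above Pcdhgc5 at P0, where it ranked 42. In P14 controls Pcdhga11 and Pcdhga3 (7.12 and 5.70 CPM per kb) lay above Pcdhgc4 (5.03). Among tested alternate alpha genes, Pcdha12 was highest and Pcdha1 lowest in both control groups, at 5.59 ± 1.83 and 0.670 ± 0.283 CPM per kb at P0 and at 3.58 ± 1.13 and 0.723 ± 0.164 at P14. Within beta, Pcdhb20 led at P0 with 4.86 ± 0.426 CPM per kb and Pcdhb9 at P14 with 4.83 ± 0.694. The lowest tested beta genes were Pcdhb14 at P0, with 0.806 ± 0.0607, and Pcdhb6 at P14, with 0.819 ± 0.0961. In gamma A, Pcdhga11 led at both ages, with 6.44 ± 3.67 and 7.12 ± 0.444 CPM per kb, while Pcdhga5 was lowest at P0 (1.22 ± 1.02) and Pcdhga9 at P14 (1.42 ± 0.273). In gamma B, Pcdhgb6 led at both ages, with 6.49 ± 1.15 and 4.25 ± 0.721. Pcdhgb5 was the lowest tested gamma B gene at P0, with 1.01 ± 0.257 CPM per kb, and Pcdhgb8 at P14, with 0.438 ± 0.170. Within a set the highest tested gene was 4.95 to 9.69 times the lowest tested gene. That spread was smaller than the one between Pcdhgc3 and the lowest tested genes. Genes that missed the count filter lay lower still, such as Pcdha8 and Pcdhb1, at 0.0746 and 0.157 CPM per kb in P0 wild types, so the full spread is wider. On full exonic length in place of private sequence, Pcdha9 led alpha and Pcdhga3 led gamma A in both control groups, while Pcdhb20, Pcdhb9 and Pcdhgb6 led as above. The lowest tested genes then became Pcdhb12 at P0, and Pcdhb21 and Pcdhga1 at P14, in place of Pcdhb14, Pcdhb6 and Pcdhga9.

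**Figure D1:**
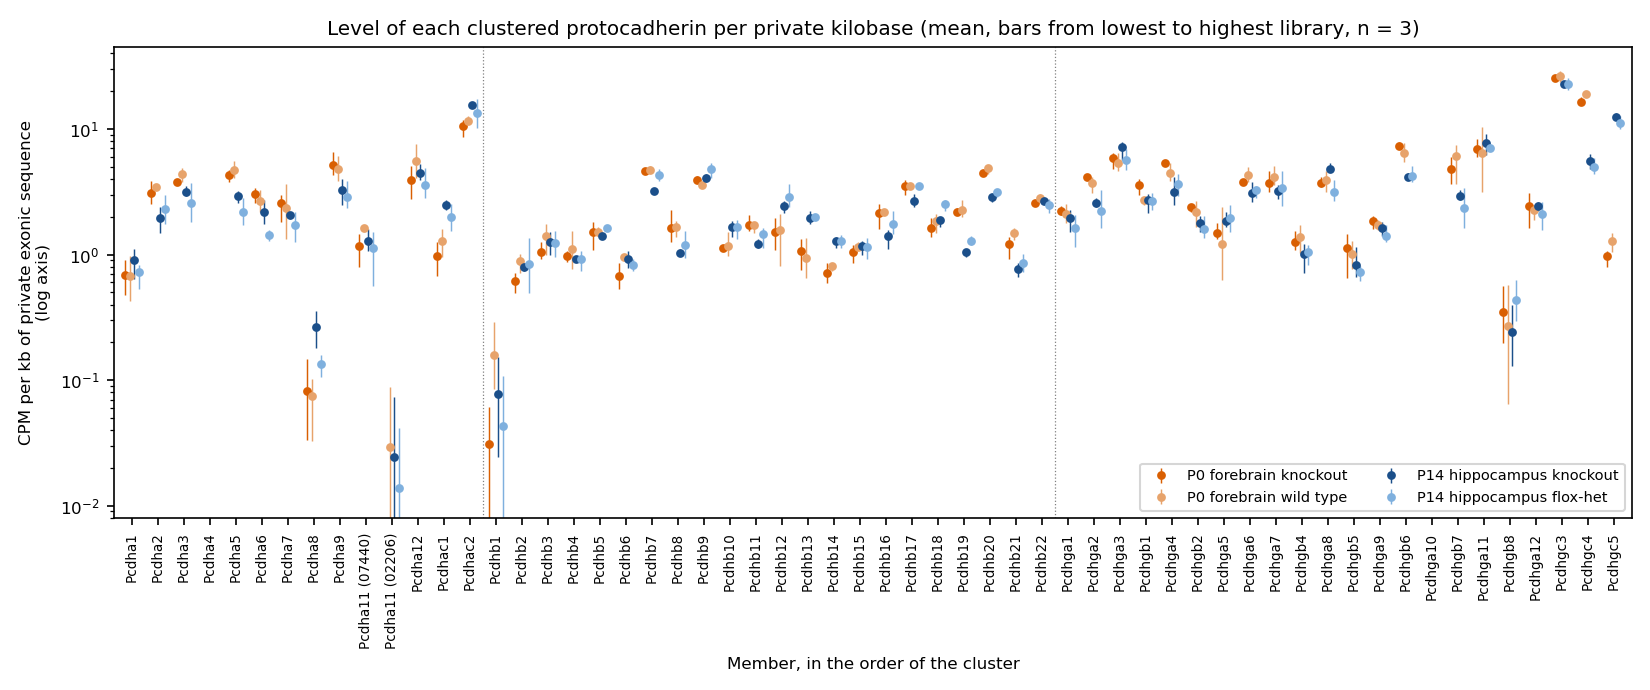
Level of each member in CPM per kilobase of private exonic sequence (log axis), as the mean of 3 libraries per group with bars from the lowest to the highest library; bars whose lowest library is 0 run to the bottom of the axis, and Pcdha4 and Pcdhga10 have no value because they have under 500 private bases. Pcdhgc3 is highest in all 4 groups, and Pcdhgc5 moves from 1.28 in P0 wild types to 11.1 in P14 controls.

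The members differed most between the contexts, and Pcdhgc5 and Pcdhgc4 stood at the ends. The P14 flox-het hippocampus was set against the P0 wild-type forebrain, so age, tissue, control genotype and library set changed together and cannot be told apart. Bulk RNA also cannot tell fewer cells of a type from less RNA per cell. With edgeR's quasi-likelihood test, 21 of 53 members (39.6% of those tested) had a Benjamini-Hochberg adjusted p under 0.05, with 7 higher and 14 lower at P14, against 64% of all 18189 genes tested (32.3% higher and 31.7% lower). Whether that share differs from other genes was not tested. The members' median log2 fold change was -0.27, against -0.0043 over all genes tested. Upper-quartile normalization gave 5 higher and 18 lower members, and without flox-het replicate 3 the count was 5 higher and 22 lower. Of the 21 called members, 10 passed in all 21 alternatives run, the contrast between the knockout groups included. These were Pcdha5, Pcdhb13, Pcdhb14, Pcdhb19, Pcdhb20, Pcdhb21, Pcdhgb6, Pcdhgb7, Pcdhgc4 and Pcdhgc5. The share of all called genes that passed in every alternative is not given here.

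Pcdhgc5 rose most. Its CPM were 6.81, 4.86 and 5.98 in the P0 wild types and 48.4, 46.1 and 58.6 in the P14 controls, an 8.67-fold difference (log2 fold change 3.12, SE 0.13, edgeR adjusted p 4.58e-15). Every P14 control was above every P0 control, and the same held in the knockouts, with 4.77, 3.65 and 4.96 CPM at P0 and 56.5, 61.4 and 54.8 at P14. Pcdhgc4 fell most, from 64.2, 68.7 and 64.3 CPM to 16.6, 15.2 and 20.6, which left 0.266 of the P0 level (log2 fold change -1.91, SE 0.12, edgeR adjusted p 1.96e-12). The P14 values all lay below the P0 values. In the knockouts Pcdhgc4 was at 62.6, 54.9 and 54.4 CPM at P0 and at 22.1, 16.7 and 19.1 at P14.

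Pcdhgc3, the other gamma C-type gene, was at 48.9, 52.3 and 43.1 CPM at P0 and 39.7, 37.4 and 46.8 at P14, overlapping groups with a log2 fold change of -0.22 (edgeR adjusted p 0.0573). Of all counts assigned to the gamma array, C-type genes took 45.5% ± 4.70 in P0 wild types and 48.5% ± 1.45 in P14 controls (SD, n = 3 each). Within that, Pcdhgc4 went from 25.0% ± 2.23 to 7.71% ± 0.214 and Pcdhgc5 from 2.22% ± 0.312 to 22.6% ± 0.623, whereas Pcdhgc3 took 18.3% at both ages.

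In the alpha array C-type genes took a larger share of counts in the P14 controls, where several alternate genes were lower. Of 9 alternate alpha genes tested, 6 fell, none rose and the median log2 fold change was -0.63, beside the 64% of all genes called. Pcdha5 fell from 10.3, 9.64 and 13.1 CPM to 4.04, 4.69 and 6.59, with no overlap (log2 fold change -1.11, SE 0.18, edgeR adjusted p 1.79e-05). Pcdha6 went from 4.71, 4.13 and 6.15 CPM to 2.95, 2.40 and 2.69 (-0.91, edgeR adjusted p 0.00116), again with separate groups. Pcdha2, Pcdha3, Pcdha9 and Pcdha12 were the other falls, with log2 fold changes from -0.77 to -0.58, and the libraries of Pcdha9 and Pcdha12 overlapped between the groups. Pcdha12 passed in 10 of the 21 alternatives. Its value was -0.34 without wild-type replicate 1, -0.51 without flox-het replicate 1 and -0.48 without flox-het replicate 2, and it also missed the threshold, at -0.68 to -0.62, without wild-type replicate 2, P0 knockout replicate 3 or any 1 of the P14 knockouts, and at -0.63 and -0.60 with RLE normalization and a GC offset. The call of Pcdha2 was lost without wild-type replicate 1 or 3 or flox-het replicate 1 or 2 (-0.55 to -0.41). That of Pcdha9 was lost without wild-type replicate 3 or flox-het replicate 1 or 2 (-0.63 to -0.50) and with counts of 1 strand (-0.53). Pcdhac1 was higher at P14 by 0.62 on the log2 scale (SE 0.24, edgeR adjusted p 0.0307), with 4.12, 2.43 and 3.38 CPM at P0 and 4.79, 3.97 and 6.43 at P14. These groups overlap, and the call was lost with upper-quartile normalization (0.52), with counts of 1 strand (0.50) and without wild-type replicate 2 (0.45), wild-type replicate 3 (0.64) or flox-het replicate 3 (0.41). Pcdhac2 was at 38.4, 33.0 and 33.8 CPM and at 38.2, 31.1 and 52.6, with a log2 fold change of 0.21 that did not pass (edgeR adjusted p 0.253). Together the C-type genes made up 35.7% ± 3.16 of alpha counts in P0 wild types and 51.7% ± 1.12 in P14 controls, with ranges of 32.3% to 38.4% and 50.7% to 52.9% that did not overlap.

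**Figure D2:**
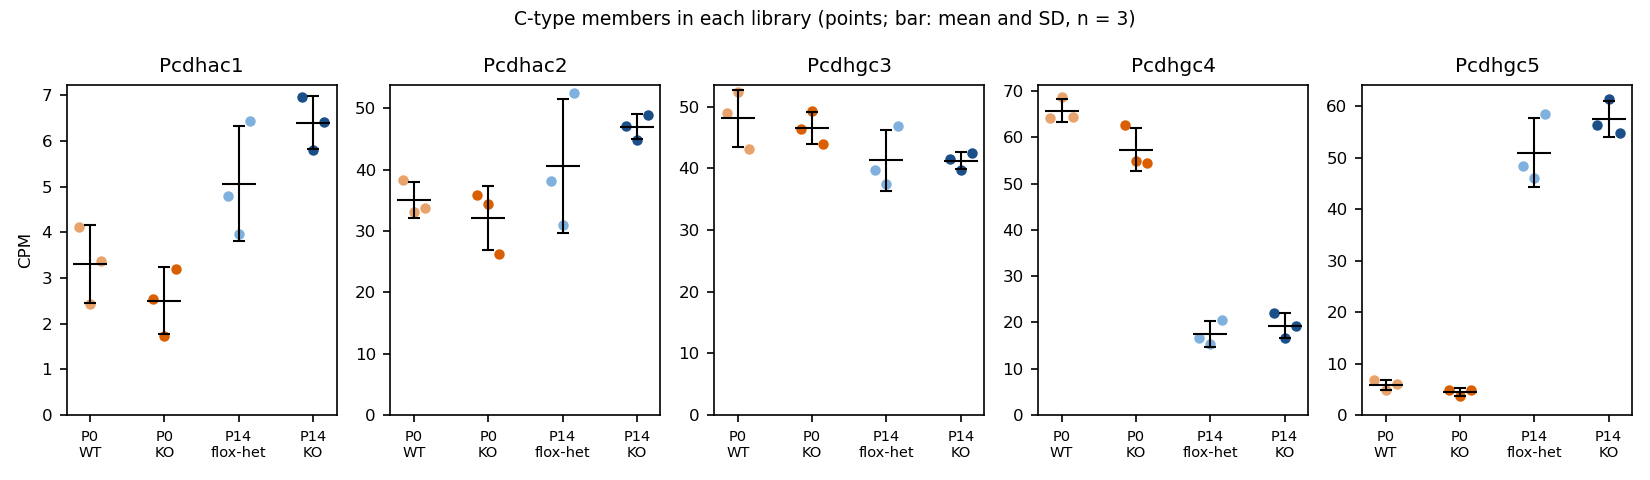
CPM of the 5 C-type members in each library (points), with the mean and SD of 3 libraries per group. Pcdhgc4 drops from 54.4 to 68.7 at P0 to 15.2 to 22.1 at P14, and Pcdhgc5 climbs from 3.65 to 6.81 to 46.1 to 61.4.

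Beta genes moved in both directions. Of 21 tested, 5 rose and 3 fell, beside the 64% of all genes called. Pcdhb13 rose from 5.04, 2.43 and 2.99 CPM to 7.45, 7.43 and 7.28 (log2 fold change 1.10, SE 0.23, edgeR adjusted p 0.000286), with no overlap. Its neighbours Pcdhb12 and Pcdhb14 rose by 0.83 and 0.67 on the log2 scale (edgeR adjusted p 0.0198 and 0.00103), followed by Pcdhb18 (0.45) and Pcdhb9 (0.42). The call of Pcdhb12 was lost without wild-type replicate 2 (0.54) or flox-het replicate 2 (0.64) and with counts of 1 strand (0.52). That of Pcdhb18 was lost without wild-type replicate 3 (0.30) or flox-het replicate 2 (0.43) or 3 (0.39), with upper-quartile normalization (0.35) and with counts of 1 strand (0.44), and that of Pcdhb9 with counts of 1 strand (0.31). Pcdhb19, Pcdhb20 and Pcdhb21, which also stand next to each other, fell by 0.82, 0.62 and 0.81 (edgeR adjusted p 3.15e-05, 0.000118 and 0.00187). Pcdhb19 went from 19.6, 14.5 and 14.3 CPM to 8.72, 10.1 and 8.49, so that every P14 control was below every P0 control. Whether position in the array goes with direction was not tested.

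Alternate gamma genes that passed all fell. Of 11 gamma A genes tested, Pcdhga2 and Pcdhga6 passed (log2 fold changes -0.73 and -0.41, edgeR adjusted p 0.00418 and 0.0315). With counts of 1 strand both calls were lost (-0.57 and -0.20), and that of Pcdhga6 also with no filter on low counts (-0.36) and without wild-type replicate 1 (-0.42) or 3 (-0.28) or flox-het replicate 2 (-0.30). Of 7 gamma B genes, Pcdhgb7 and Pcdhgb6 passed. Over all genes tested 64% were called, 31.7% lower and 32.3% higher. Pcdhgb7 was at 13.6, 13.1 and 6.64 CPM in P0 wild types and at 2.95, 3.74 and 6.22 in P14 controls (-1.35, SE 0.30, edgeR adjusted p 0.00100), and the groups nearly met. Pcdhga5 varied within P0: its wild-type libraries were at 1.60, 1.62 and 6.09 CPM and its P14 controls at 4.74, 3.85 and 6.27. Its log2 fold change of 0.60 did not pass (edgeR adjusted p 0.207), and without wild-type replicate 3 it was 1.63 (edgeR adjusted p 6.68e-05).

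**Figure D3:**
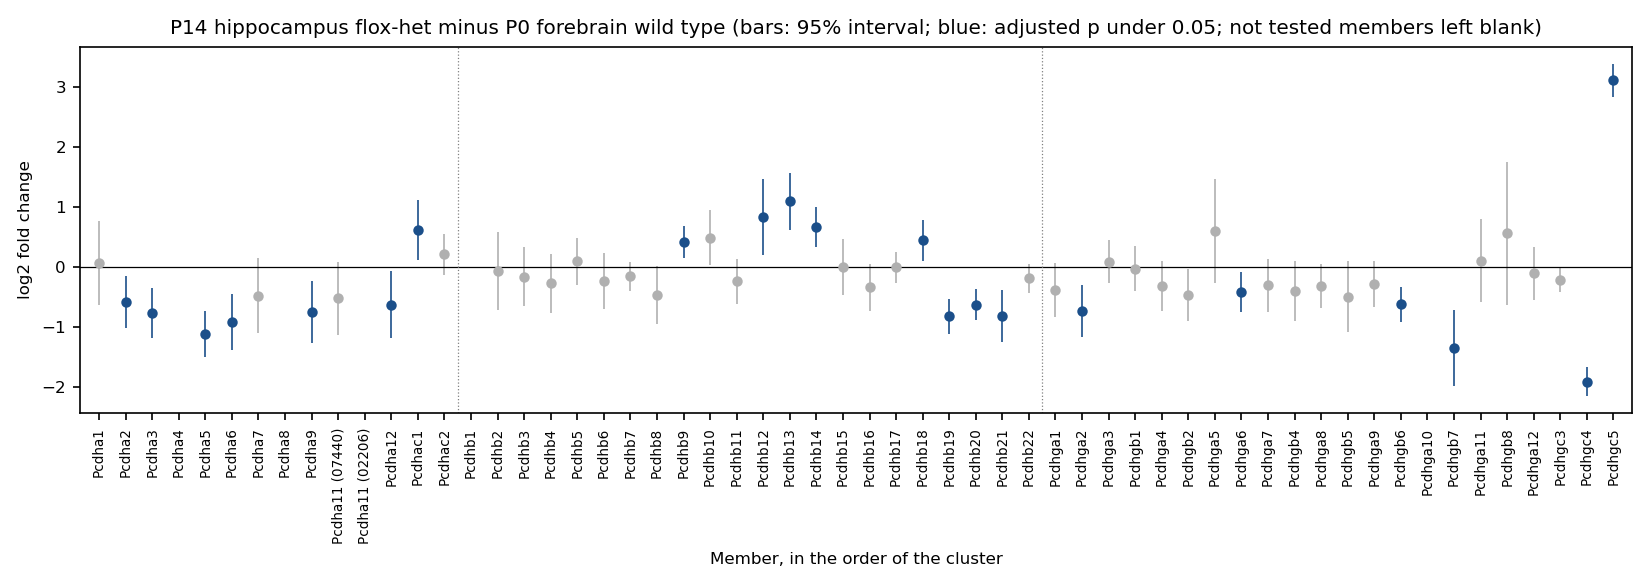
Log2 fold change of each tested member between P14 flox-het hippocampus and P0 wild-type forebrain, with 95% intervals that are not adjusted for the number of genes; blue marks an edgeR adjusted p under 0.05, and the Pcdha11 labels end in the last digits of their identifiers. Of 53 members 7 are higher and 14 lower, and Pcdhgc5 (3.12) and Pcdhgc4 (-1.91) lie farthest from 0.

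The same contrast between the knockout groups used separate libraries. It called 23 of 53 members, 7 higher and 16 lower, against 64.3% of all genes tested (32.1% higher and 32.2% lower). Of the 53, 43 had the same sign in both contrasts, and 15 were called in both, all with the same sign. These are 71.4% of the members called in controls and 65.2% of those called in knockouts. The matching shares over all genes are not given here, so this agreement is not shown to be particular to the members. The 15 included Pcdhgc5 (3.68 in the knockouts), Pcdhgc4 (-1.57), Pcdhac1 (1.33), Pcdha5 (-0.58), Pcdhb12, Pcdhb13, Pcdhb14, Pcdhb19, Pcdhb20 and Pcdhb21. Pcdha6 was at -0.49 there (edgeR adjusted p 0.0506), and Pcdha3, Pcdha12, Pcdhb9, Pcdhb18 and Pcdhga6, called in the controls, were at -0.29, 0.20, 0.04, 0.20 and -0.27 without passing. Called only in the knockouts were Pcdhac2 (0.55, edgeR adjusted p 0.00691) and Pcdhb10 (0.55), both higher. Pcdhb7, Pcdhb8, Pcdhb11, Pcdhb16, Pcdhb17 and Pcdhga4 were called lower only there, at -0.78 to -0.40. The median of the beta genes turned from -0.15 in the controls to 0.03 in the knockouts, and that of alternate alpha was -0.63 and -0.33. Marker levels for other cells moved with the contexts as well: the summed level of 8 oligodendrocyte markers was 121 to 122 CPM in P0 wild types and 4398 to 6581 in P14 controls, that of 8 progenitor markers 406 to 439 and 178 to 186. Their part in the differences of the protocadherins was not tested.

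Loss of Auts2 exon 7 gave no called member in newborn forebrain. At P0 none of 52 tested members had an edgeR adjusted p under 0.05, against 0.909% of all genes tested, and DESeq2 called none either, against 3.16%. An unadjusted p under 0.05 was reached by 2 members, against 16.1% of all genes (6.95% higher and 9.17% lower). These were Pcdhgb1 and Pcdhgc4. Pcdhgb1 was at 10.5, 7.79 and 9.68 CPM in knockouts and 6.47, 7.37 and 7.53 in wild types (log2 fold change 0.38, SE 0.16, edgeR adjusted p 0.273). All knockouts were above all wild types. Pcdhgc4, with the P0 values given above, had every knockout below every wild type (-0.20, SE 0.09, edgeR adjusted p 0.266). In all, 7 members separated the libraries by genotype, 2 upward and 5 downward, against 21.8% of all genes (10.7% upward and 11.1% downward).

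The most negative P0 values were in the beta and alpha arrays and did not pass: Pcdhb2 at -0.53, Pcdhb6 at -0.51, Pcdha12 at -0.51 and Pcdha11 (ENSMUSG00000007440) at -0.46 (edgeR adjusted p 0.325 to 0.384). Pcdhb6 was at 1.99, 3.23 and 2.42 CPM in knockouts and 3.78, 3.48 and 3.54 in wild types, without overlap. For Pcdha12 the knockouts were at 5.41, 9.95 and 7.50 CPM and the wild types at 14.8, 9.96 and 7.86, which overlap. The most positive values after Pcdhgb1 were those of Pcdhga4 (0.23), Pcdhga5 (0.22) and Pcdha6 (0.17), and Pcdhga5 turned to -0.076 without wild-type replicate 2 and to -0.073 without wild-type replicate 1. By set, the medians were -0.12 for alternate alpha, -0.11 for beta, with 18 of 21 genes on the negative side, 0.09 for gamma A and 0.11 for gamma B, against -0.00034 over all genes. The alpha median turned to 0.04 without wild-type replicate 3, and the gamma A and gamma B medians to -0.03 each without wild-type replicate 2. The 5 C-type genes were all on the negative side, from -0.40 (Pcdhgc5) and -0.39 (Pcdhac1) through -0.13 (Pcdhac2) to -0.05 (Pcdhgc3), although Pcdhac2 reached 0.0014 without knockout replicate 3 and Pcdhgc3 0.014 without wild-type replicate 2. For 47 of the 52 members the 95% interval excluded a 2-fold difference in either direction.

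The P0 comparison was repeated with library number in view. In the 4 libraries numbered 1407 to 1410 alone, Pcdhb3 was lower (-0.75, edgeR adjusted p 0.0387) and Pcdhga5 higher (1.08, edgeR adjusted p 0.0320) in knockouts, 2 members against 12.9% of all genes called in that fit (7.13% lower and 5.82% higher). With number series and genotype in 1 fit, no member was called for the series itself, against 0.117% of all genes, and 11 had an unadjusted p under 0.05, against 13%. Among these, Pcdhgb7 was lower in replicate 3 of both genotypes, with 8.91, 10.9 and 6.66 CPM in knockouts and 13.6, 13.1 and 6.64 in wild types. Pcdhga11 was higher there, with 7.48, 8.12 and 10.4 CPM in knockouts and 7.23, 3.97 and 13.1 in wild types. What the numbers stand for is not stated.

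At P14 none of 53 members passed either, against 1.99% of all genes tested. Leading the positive side, Pcdhga8 was at 9.60, 9.53 and 11.2 CPM in knockouts and 6.01, 5.53 and 8.12 in controls, which do not overlap (log2 fold change 0.63, SE 0.17, edgeR adjusted p 0.0704). Its adjusted p was 0.0381 with DESeq2, which called 3.36% of all genes (2.05% higher), and 0.0101 in edgeR with no filter on low counts, which called 2.48% (1.5% higher). Pcdha6 was at 3.33, 3.86 and 5.09 CPM against 2.95, 2.40 and 2.69, also separate (0.61, SE 0.22, edgeR adjusted p 0.196). An unadjusted p under 0.05 was reached by these 2 and by 3 beta genes on the negative side, against 15.2% of all genes (7.84% higher and 7.4% lower).

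The beta genes with the lowest P14 p-values were Pcdhb17, Pcdhb7 and Pcdhb18. Pcdhb7 was at 10.9, 11.6 and 11.4 CPM in knockouts and 14.6, 16.9 and 13.5 in controls (-0.40, SE 0.13, edgeR adjusted p 0.125). Pcdhb17 was at 14.2, 11.2 and 11.7 CPM against 15.9, 16.6 and 16.8 (-0.40, SE 0.12, edgeR adjusted p 0.121), and Pcdhb18 at 10.04, 8.41 and 9.92 against 11.2, 13.1 and 13.8 (-0.42, SE 0.14, edgeR adjusted p 0.152). In all 3 every knockout was below every control. Groups did not overlap for 7 members, 2 upward and 5 downward, all 5 of them beta genes, against 20% of all genes (9.43% upward and 10.6% downward). The summed beta level was 152, 145 and 145 CPM in knockouts and 159, 169 and 173 in controls, again without overlap. The median beta log2 fold change was -0.13, with 15 of 21 genes on the negative side, but -0.01 without flox-het replicate 3. For alternate alpha the median was 0.28, with 8 of 9 genes on the positive side, for gamma A 0.19 and for gamma B 0.04, which turned to -0.00062 with an offset on GC content. The largest negative value was that of Pcdhgb8, at 0.994, 0.325 and 0.509 CPM against 0.982, 1.56 and 0.738 (-0.82, SE 0.45, edgeR adjusted p 0.412), from 7 to 28 counts a library. Other positive values were those of Pcdha5 (0.42) and Pcdhac1 (0.34). The C-type genes were at 0.34 (Pcdhac1), 0.22 (Pcdhac2), 0.15 (Pcdhgc4), 0.18 (Pcdhgc5) and 0.01 (Pcdhgc3, which turned negative with a GC offset and in 1 fit on all 12 libraries), with edgeR adjusted p from 0.378 to 0.983. For 51 of 53 members the 95% interval excluded a 2-fold difference.

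**Figure D4:**
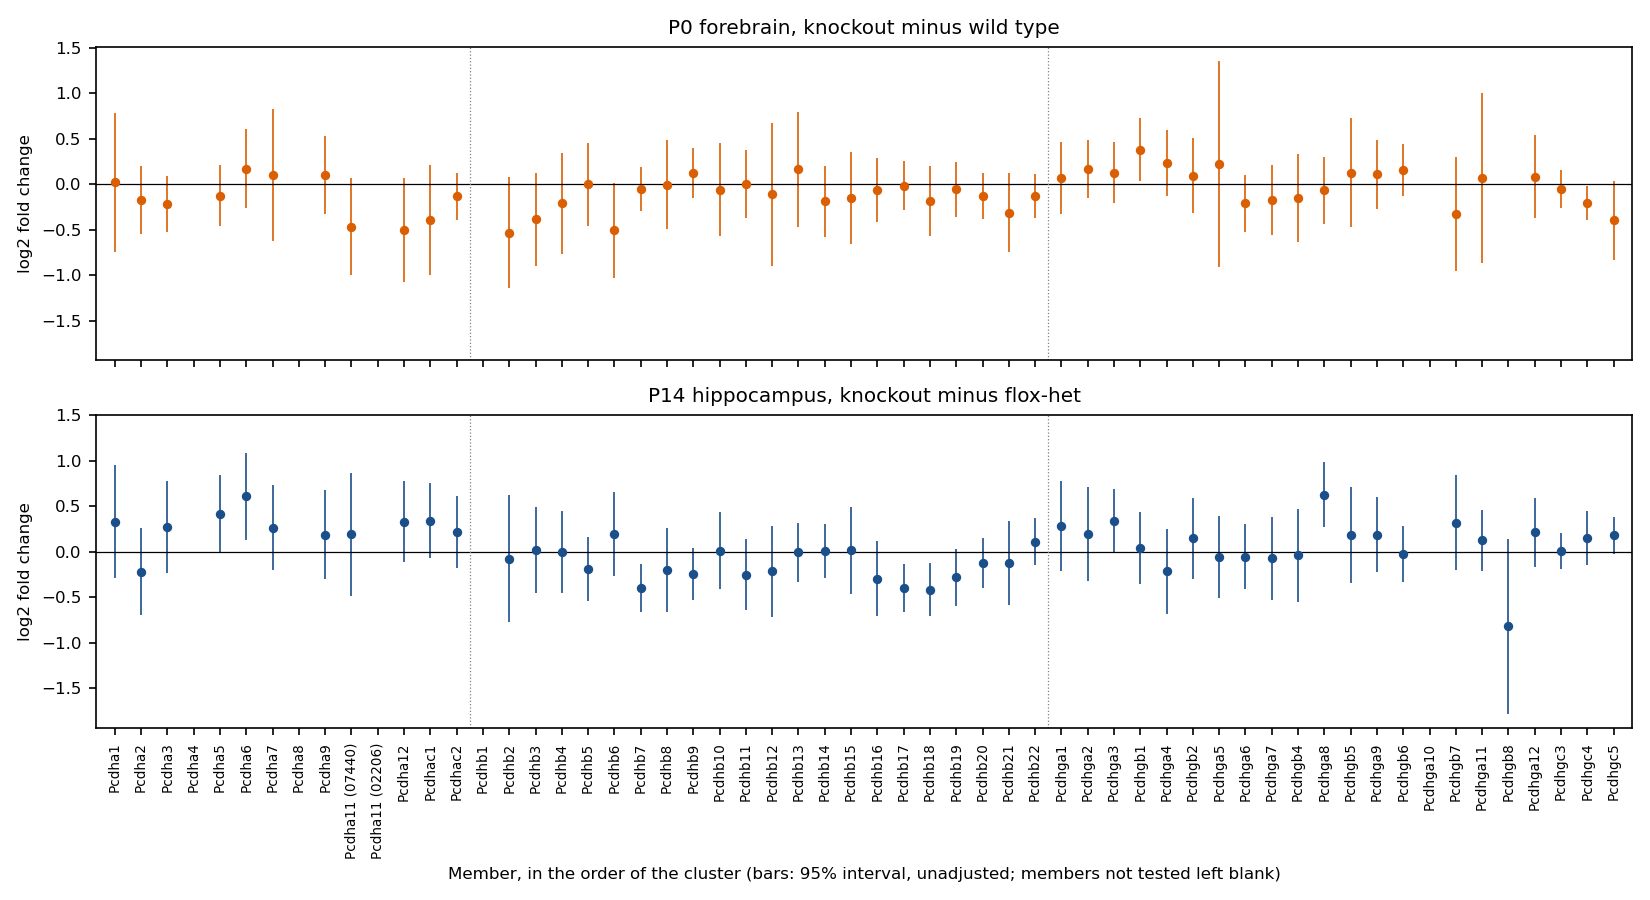
Log2 fold change of each tested member between knockouts and controls at P0 (top) and P14 (bottom), with unadjusted 95% intervals. No member has an edgeR adjusted p under 0.05 in either panel; the beta genes lie mostly below 0 in both.

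One P14 control stood apart from the others in the alpha and gamma sums. Flox-het replicate 3 had a summed alternate alpha level of 55.8 CPM, against 38.2 and 34.0 in the other controls and 51.6, 47.9 and 53.4 in knockouts. It was also the highest control for gamma A (100.2 CPM, against 74.2 and 71.9), for gamma C-type (126 against 105 and 98.8) and for alpha C-type (59.0 against 43.0 and 35.0), whereas its beta sum, 173 CPM, was near the 159 and 169 of the others. The C-type share of alpha counts stayed between 50.7% and 52.9% over the 3 controls. Leaving flox-het replicate 3 out moved the P14 medians to 0.56 for alternate alpha, 0.37 for gamma A and 0.17 for gamma B. The beta median moved as well, to -0.01. Without this library 9 members were called at P14, 8 of them higher in knockouts, against 10.3% of all genes (5.84% higher and 4.5% lower). They were Pcdhga8 (0.82), Pcdhgb7 (0.69), Pcdha3 (0.65), Pcdha5 (0.65), Pcdha12 (0.63), Pcdhga3 (0.52), Pcdhac2 (0.46) and Pcdhgc5 (0.30), with Pcdhb7 lower (-0.47), at edgeR adjusted p from 0.00281 to 0.0439. The same library had the highest choroid plexus marker sum, and the part of either in the counts of the members was not tested.

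**Figure D5:**
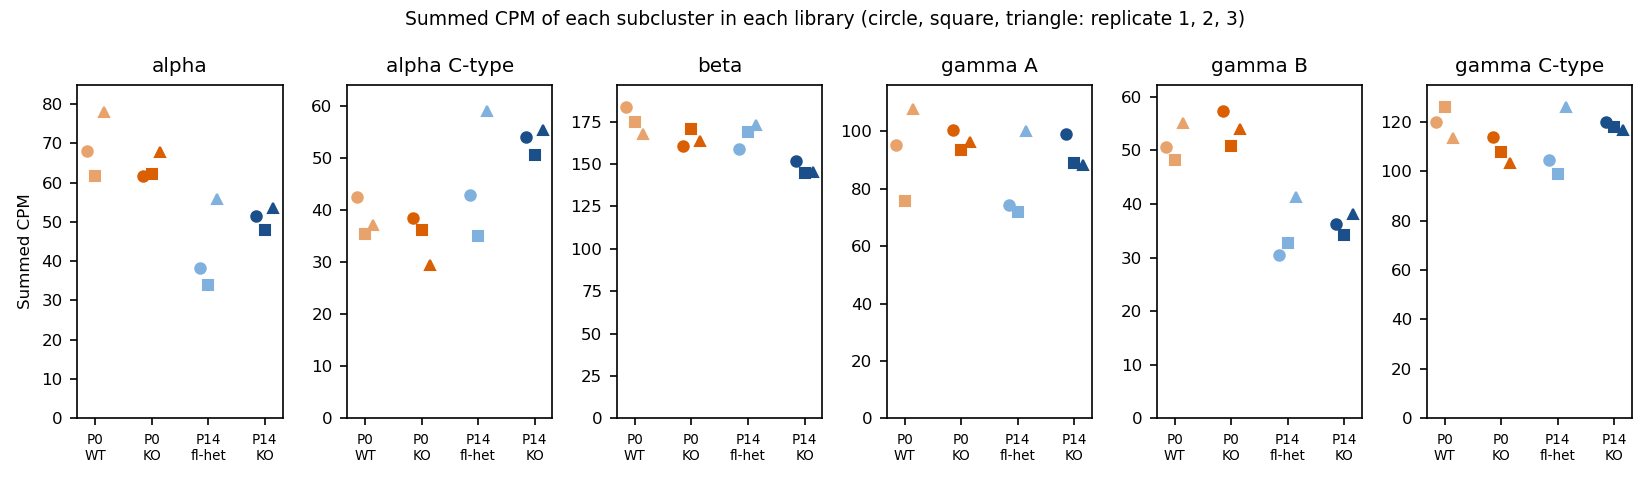
Summed CPM of each set in each library, with circles, squares and triangles for replicates 1, 2 and 3 of a group. The flox-het triangle lies above the other flox-het points for alternate alpha (55.8 against 38.2 and 34.0) and gamma A (100.2 against 74.2 and 71.9), and the beta sums of the P14 knockouts (145 to 152) lie below those of the controls (159 to 173).

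The genotype difference itself was compared between the contexts with an interaction term in a fit to all 12 libraries. No member passed, against 1.79% of all genes tested, DESeq2 called none, and 8 of 53 (15.1%) had an unadjusted p under 0.05, against 15.3%. Pcdhgc5 had the smallest adjusted p: its genotype effect was higher at P14 by 0.56 on the log2 scale (SE 0.20, edgeR adjusted p 0.165). Pcdhga8 followed at 0.68 (SE 0.25, edgeR adjusted p 0.182), and Pcdha12 had the most positive value, 0.82 (SE 0.37, edgeR adjusted p 0.307). Pcdhac1 (0.72), Pcdhac2 (0.34), Pcdhgc4 (0.34) and Pcdhgc3 (0.04) were also on the positive side, with edgeR adjusted p from 0.316 to 0.924, and Pcdhgc3 turned to -0.026 without flox-het replicate 2. Without flox-het replicate 3, Pcdha3, Pcdhga8 and Pcdhgc5 passed (0.84, 0.87 and 0.67), against 4.85% of all genes (3.06% higher). Markers of other cells differed by genotype in the same tissue. Dentate granule cell markers summed to 490 to 533 CPM in P14 knockouts and 688 to 738 in controls, with 8 of 12 called lower, beside 1.99% of all genes called. Of the hippocampal markers 3 of 8 were called lower, of CA pyramidal neuron markers 3 of 10 lower and 1 higher, and of cortical excitatory neuron markers 5 of 12 higher. Striatal projection neuron markers summed to 206 to 315 CPM in knockouts and 160 to 199 in controls, with 1 of 11 called, higher. At P0 the dentate granule list summed to 227 to 240 CPM in knockouts and 276 to 321 in wild types, with 2 of 10 tested genes called lower, beside 0.909% of all genes. No marker of these lists was at 0 in a group, and their part in the protocadherin values was not tested.

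Genes that act on or beside the arrays were examined from lists. Among 20 genes for insulation and silencing, such as the loop-forming Ctcf and Rad21, the cohesin release factor Wapl, the silencer Smchd1 and the DNA methyltransferases Dnmt3a and Dnmt3b, none was called by edgeR at P0 or at P14, with 1 each at an unadjusted p under 0.05 and medians of 0.01 and -0.04. Over all genes that level was reached by 16.1% at P0 and 15.2% at P14. None of 20 genes for signalling from the protocadherin cytoplasmic domain was called either. That list holds the focal adhesion kinases Ptk2 and Ptk2b and the WAVE complex subunits Cyfip1, Nckap1 and Wasf1, and its medians were -0.05 and -0.04, with 4 and 2 genes at an unadjusted p under 0.05. Of 21 genes flanking the arrays, such as Taf7 between beta and gamma and Diaph1 beyond gamma, 18 were tested at P0 and 20 at P14 and none was called, with 5 and 0 at an unadjusted p under 0.05.

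Non-clustered protocadherins, which lie elsewhere or singly and have cytoplasmic tails of their own, included called genes. Of 12 tested, Pcdh11x was lower in P0 knockouts, with mean CPM of 53.8 against 78.3 in wild types (log2 fold change -0.55, SE 0.10, edgeR adjusted p 0.0339), and 7 of 12 (58.3%) had an unadjusted p under 0.05 there, against 16.1% of all genes. Pcdh20 was lower in P14 knockouts, at 118 against 152 mean CPM (-0.35, SE 0.07, edgeR adjusted p 0.0225). The genotype effect on Pcdh10 was higher at P14 than at P0 by 0.56 (SE 0.12, edgeR adjusted p 0.0150). Over all genes tested, 0.909% were called at P0, 1.99% at P14 and 1.79% for the interaction. Whether non-clustered and clustered genes differ in these respects was not tested.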

How the data were processed

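RNA was sequenced in pairs of 150 bp from 12 mice, and the authors deposited raw counts of reads per Ensembl gene for each library. The submitters' processing notes name STAR 2.7.5a and edgeR 3.12, on GRCm38; no trimming step is stated. The unstranded count was used, since both strand columns held nearly equal totals, and 0 per-sample columns were left aside. Symbols and exons came from GENCODE vM21, whose exons may differ from release 102 used for counting. CPM were computed on library sizes scaled by TMM over all 12 libraries. Tests used edgeR 4.0.16 in R 4.3.3 (filterByExpr, TMM, robust glmQLFit, glmQLFTest) on all genes, with Benjamini-Hochberg adjustment over all genes tested and a threshold of 0.05. Each genotype comparison was fitted on its own 6 libraries, and the interaction and the comparison of control groups on all 12. An SE came from the coefficient and its F statistic. The tests were tried on simulated counts. Groups came from the labels, and replicates were numbered in accession order. Members and gene lists were chosen with earlier results of these data known. Named were Auts2, the C-type genes, every member called for genotype or interaction, the 4 largest rises and falls per context, the highest and lowest level per set, the 5 largest called context differences each way and called genes of the other lists. Any other member named was picked with its values in view. Alternatives were other normalizations (RLE, upper quartile), DESeq2 1.42.0, other filters, non-robust fitting, 1 strand column, a GC offset, the library number series and leaving out each library. The contrast between knockout groups and the coefficient of the number series were added after seeing the data. Intervals and standard errors cover animals and counting together, and reads without molecular identifiers are not independent molecules. A further list of tissue markers is not reported here.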

Additional observations from a re-analysis of the deposited data

Results flagged for a closer look

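A pair of members with next to no unstranded counts had counts in the columns for a single strand, which the comparisons do not use. In the strand column used as the alternative, Pcdhga10 had 915 counts over the 12 libraries, 47 to 112 in each, against 0 in the unstranded column, and the other strand column held 996. Pcdha11 (ENSMUSG00000102206) had 445 counts, 14 to 67 per library, against 5 in the unstranded column, with 483 in the other strand column. Both genes are overlapped by an antisense gene model, Gm26672 for Pcdhga10 and Gm10545 for Pcdha11 (ENSMUSG00000102206). Over all members the strand columns held nearly equal totals, so the libraries do not mark strand, and reads of a gene and of its antisense partner cannot be told apart. On counts of that strand, neither passed for genotype: Pcdhga10 had log2 fold changes of -0.44 at P0 and 0.21 at P14 (edgeR adjusted p 0.259 and 0.705). Both were lower in P14 controls than in P0 wild types, by -0.58 for Pcdhga10 and -1.53 for Pcdha11 (ENSMUSG00000102206), with edgeR adjusted p of 0.00987 and 5.42e-05.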

How the results depend on the processing

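Among members called for genotype, the count of 0 at P0 became 2 with libraries 1407 to 1410 alone and was 0 in each fit that left out 1 library. At P14 it became 1 with DESeq2 and 1 with no filter on low counts, and lay between 0 and 9 when 1 library was left out. For the interaction the latter range was 0 to 3, and for the control groups 16 to 27 around 21, with flox-het replicate 3 giving the highest in each case. Every other alternative run left the genotype and interaction counts at 0. Pcdhgc3 at P14 (0.01) changed sign with a GC offset (-0.043) and in a fit on all 12 libraries (-0.0035), and ranged from -0.057 to 0.11 when 1 library was left out. The same ranges at P0 were -0.12 to 0.014 for Pcdhgc3, -0.21 to 0.0014 for Pcdhac2 and -0.076 to 1.24 for Pcdhga5, and for the interaction of Pcdhgc3 -0.026 to 0.14. With CPM on total counts, the summed levels in P0 knockouts were 68.4 (alternate alpha), 176 (beta), 103.6 (gamma A), 57.9 (gamma B), 116 (gamma C-type) and 559 (all members). In P0 wild types they were 187 (beta), 128 (gamma C-type) and 584 (all members), and in P14 controls 156 (beta). In P14 knockouts they were 47.6 (alternate alpha), 49.8 (alpha C-type), 137 (beta), 86.0 (gamma A), 33.8 (gamma B), 110.2 (gamma C-type) and 465 (all members). Among tested genes, the ratio of the highest to the lowest level on full exonic length was 8.45 for beta in P0 wild types (6.03 on private sequence). For gamma A in P14 controls it was 3.66 (5.02 on private sequence). The cause of these changes was not tested. No paired analysis was possible because the labels give the groups no replicate numbers, and those used here follow accession order. The library number series at P0 was instead fitted as a term. Depth limits members with few counts, such as Pcdhgb8, with 2 to 28 counts per library.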

Other observations

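Genes that act on the arrays were mostly lower in the older context. Of the 20 insulation and silencing genes, 16 were lower and 1 higher in P14 flox-het hippocampus than in P0 wild-type forebrain (edgeR adjusted p under 0.05), beside 31.7% of all genes called lower and 32.3% higher. Tissue, age, control genotype and library set cannot be told apart here either. Dnmt1, the maintenance DNA methyltransferase, was lowest at -1.23, Trim28 was at -0.95, the cohesin subunits Rad21 and Smc3 were both at -0.78 and Ctcf at -0.49. Dnmt3a, a methyltransferase that sets new methylation, was the gene that rose, by 0.58. Of the 20 genes for signalling from the cytoplasmic domain, 9 rose and 3 fell. Ptk2b had the largest rise, 3.68, and the WAVE complex genes Nckap1, Cyfip1, Wasf1 and Cyfip2 rose by 1.18, 1.16, 1.10 and 1.01, whereas Marcks fell by 1.31.

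Non-clustered protocadherins moved both ways. Pcdh20 was higher in the P14 controls by 3.25 and Pcdh1 by 1.53 on the log2 scale, while Pcdh11x was at -1.86 and Pcdh18 at -1.64 (edgeR adjusted p from 4.67e-17 to 3.93e-10). In all, 7 of 12 were called, 3 higher and 4 lower, beside the 64% of all genes called.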
